A study of Mus musculus with 5 samples.

Results

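The genes of the vertebrate phototransduction cascade were followed through single-cell libraries of sorted mouse retinal cells. They were chosen by symbol as 31 genes, of 33696 listed in all libraries. In this list 9 genes are used mainly by rods (*Gnat1*, *Gngt1*, *Pde6a*, *Pde6b*, *Pde6g*, *Cnga1*, *Cngb1*, *Sag* and *Slc24a1*), 10 are their cone counterparts, 11 serve both photoreceptor types, and *Gnb1* is also used widely outside photoreceptors. The mice were *Glast-CreERT2; Rosa26-Ai65* on C57BL/6J, aged 12 to 20 weeks, males and females pooled, and all received tamoxifen and an intravitreal ShH10 AAV. The control group received ShH10-GFAP-mKate2 (*mKate2* AAV, 16 pooled retinas) and the other group ShH10-GFAP-Yap5SA (*Yap5SA* AAV, 21 pooled retinas), which encodes an activated form of the transcriptional co-activator YAP. In both AAVs a *Gfap* promoter, which is active in Müller glia (MG), drives the transgene together with the FlpO recombinase, and the Ai65 reporter makes tdTomato only where Cre, from *Glast-CreERT2*, and FlpO have both acted. The tdTomato+ cells were sorted at day 56 and sequenced with the 10x 3′ kit, which counts unique molecular identifiers (UMIs), each standing for 1 captured polyA transcript. The labels name the sorted cells MG. In each library every one of the 5 MG markers was found in the MG-like cells, but 3 of the 4 libraries also held cells over the photoreceptor threshold and all 4 held microglia-like cells.

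Phototransduction turns the absorption of a photon into the closing of ion channels in the outer segment of a rod or cone. Light-activated opsin switches on transducin, transducin releases the catalytic subunits of a cGMP phosphodiesterase (PDE6) from their inhibitory subunit, and the fall in cGMP closes the cyclic nucleotide-gated (CNG) channel. Arrestin, a receptor kinase, an RGS complex and Ca2+-sensing proteins then end the response, and MG and microglia are not known to use this cascade.

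Libraries are named by AAV and replicate number. The *mKate2* 1, *mKate2* 2, *Yap5SA* 1 and *Yap5SA* 3 libraries held 2748, 7729, 1407 and 3409 barcodes, and 1677, 5637, 1127 and 2310 of these passed the limits used here (at least 1000 UMIs and at most 15% mitochondrial UMIs). *Yap5SA* 2 was left out because 1361 of its barcodes (99.8% of the smaller library) were also in *Yap5SA* 1, and the pair was counted as 1 sample. Their summed counts over 18148 genes were closer than sampling noise alone would leave them (chi-square statistic divided by its degrees of freedom, 0.426). Other pairs of libraries shared 0 to 7 barcodes. The file headers name Cell Ranger 8.0.0 for *mKate2* 1 and *Yap5SA* 1 and Cell Ranger 9.0.1 for *mKate2* 2 and *Yap5SA* 3, so each AAV had 1 library of each version. Nothing in the sources says that the libraries of an AAV came from separate animals, so p-values measure only the spread between these libraries, which may be technical.

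A cell was placed in a class when markers that are not among the 31 genes (for cones, 3 of the 31) took over 0.5% of its UMIs and no other class passed. Cones were allowed to be over the photoreceptor threshold as well. The MG-like class held 1492, 2832, 802 and 1299 cells, the microglia-like class 26, 914, 136 and 64 cells, and the rod class (cells over the photoreceptor threshold and under the cone threshold) 5, 669, 0 and 591 cells. The bipolar-like class held 164 cells in *mKate2* 2 and 34 in *Yap5SA* 3 and no cell elsewhere. Cones were taken by *Arr3*, *Opn1sw* and *Opn1mw* and numbered 16 in *mKate2* 2, 47 in *Yap5SA* 3, 1 in *mKate2* 1 and 0 in *Yap5SA* 1. These classes are ranges of a score, and 50 cells of *mKate2* 2 and 61 of *Yap5SA* 3 lay near the photoreceptor threshold, between 0.4% and 0.6%. The median number of UMIs was 8611 and 3610 in the rods of *mKate2* 2 and *Yap5SA* 3, and 6204, 2888, 10735 and 2920 in the MG of the 4 libraries. The rods of *mKate2* 1 rest on 5 cells with a median of 1216 UMIs and are given only where stated. In *mKate2* 2 the rod class held 55.6% of the *Pde6c* and 43.9% of the *Pde6h* UMIs, against 29.0% and 42.1% in cones. These lay in 5.38% and 4.63% of its cells. In *Yap5SA* 3 the rod class held 2.71% and 1.70% of them. Whether the rod class held cones under the cone threshold was not tested, so levels of cone genes in rods are levels of this class.

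Promoter sequence was at hand for 21 of the 31 genes (RefSeq, GRCm38.p6). The 120 bases before the start site are shown for a rod arrestin and a rod transducin subunit, for a cone transducin subunit, and for *Guca1a*, *Gucy2f* and *Rgs9*, whose counts across classes are set apart below. They lie at chr1:87803560-87803679 (+) for *Sag*, chr6:3993888-3994007 (+) for *Gngt1*, chr3:108092946-108093065 (+) for *Gnat2*, chr17:47400607-47400726 (−) for *Guca1a*, chrX:142196937-142197056 (−) for *Gucy2f* and chr11:109298182-109298301 (−) for *Rgs9*. Each is written 5′ to 3′ on the strand of its gene, and capitals mark TAATCC or its reverse complement GGATTA, the core bound by the photoreceptor homeobox factor CRX.
Sag: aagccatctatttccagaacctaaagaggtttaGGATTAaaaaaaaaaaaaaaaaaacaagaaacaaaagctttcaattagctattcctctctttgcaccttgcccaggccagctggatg
Gngt1: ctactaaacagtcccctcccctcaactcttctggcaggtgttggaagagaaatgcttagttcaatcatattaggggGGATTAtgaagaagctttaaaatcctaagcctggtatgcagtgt
Gnat2: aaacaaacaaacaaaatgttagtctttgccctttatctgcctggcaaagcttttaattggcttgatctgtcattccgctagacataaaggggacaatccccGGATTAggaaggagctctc
Guca1a: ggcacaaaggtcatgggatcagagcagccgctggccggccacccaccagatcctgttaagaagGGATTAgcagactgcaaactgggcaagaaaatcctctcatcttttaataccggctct
Gucy2f: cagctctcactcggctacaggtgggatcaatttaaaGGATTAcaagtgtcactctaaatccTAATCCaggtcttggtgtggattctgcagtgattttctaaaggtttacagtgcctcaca
Rgs9: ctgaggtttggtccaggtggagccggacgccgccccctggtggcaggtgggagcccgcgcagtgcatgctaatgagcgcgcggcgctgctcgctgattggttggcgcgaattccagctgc
The motif occurred on either strand in the 250 bases before the start of 8 of the 21 genes (*Cnga1*, *Cngb1*, *Gnat2*, *Gngt1*, *Guca1a*, *Gucy2e*, *Gucy2f* and *Sag*), against 6.25% of all 32851 windows of this length. The *Gucy2f* window shown holds it 2 times and the *Rgs9* window does not hold it. A match is a description of the letters and not a measured site.

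The transducin genes had their highest levels in the photoreceptor classes. Levels are given as CPM, the UMIs of a gene scaled to 1000000 UMIs of its class in a library. *Gnat1*, the rod transducin alpha subunit, stood at 2311 CPM in the rods of *mKate2* 2 and 5130 CPM in those of *Yap5SA* 3. In MG it stood at 5.43 CPM (*mKate2* 1), 47.6 CPM (*mKate2* 2), 0.523 CPM (*Yap5SA* 1) and 74.2 CPM (*Yap5SA* 3). The Cell Ranger 9.0.1 library was the higher one for each AAV, and the AAVs overlapped. *Gngt1*, the rod gamma subunit, followed the same order in MG with 13.9, 79.2, 1.25 and 94.99 CPM, and stood at 4099 and 7339 CPM in the rods of *mKate2* 2 and *Yap5SA* 3. In microglia the *Gnat1* level was 0, 11.4, 0 and 17.1 CPM, below that of MG in *mKate2* 2 and *Yap5SA* 3. The values of 0 in *mKate2* 1 and *Yap5SA* 1 rest on 374182 and 1886647 microglia UMIs. Their upper limit of 3 counts lies above the MG level, so the order of the classes is not settled in these libraries.

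*Gnb1*, the beta subunit that rod transducin shares with many G proteins, behaved differently from the rest. It stood at 157, 255, 182 and 293 CPM in MG and at 158, 251, 153 and 211 CPM in microglia, so that both classes held it in every library. Its level in rods was 2664 CPM (*mKate2* 2) and 5569 CPM (*Yap5SA* 3). In cones it fell to 10.1 and 44.7 CPM, where the cone beta subunit *Gnb3* took 2702 and 1768 CPM.

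The PDE6 and channel genes were likewise concentrated in rods. *Pde6a* and *Pde6b*, the rod catalytic subunits, stood at 1054 and 828 CPM in the rods of *mKate2* 2 and at 1673 and 1715 CPM in those of *Yap5SA* 3. In MG *Pde6b* stood at 2.29, 17.0, 0 and 30.0 CPM, and *Pde6a* at 3.48, 23.1, 0.105 and 27.8 CPM. *Yap5SA* 1, the library without cells in the rod class, was again the lowest of the 4. *Cnga1* and *Cngb1*, the subunits of the rod CNG channel, reached 1146 and 696 CPM in the rods of *mKate2* 2 and 2156 and 1284 CPM in those of *Yap5SA* 3. In MG they did not pass 23.7 and 20.6 CPM in any library, and in microglia they did not pass 5.70 CPM.

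The genes that end the light response included the clearest exceptions. *Sag*, the rod arrestin, stood at 7012 and 6877 CPM in the rods of *mKate2* 2 and *Yap5SA* 3 and at 15.8, 123, 3.66 and 97.2 CPM in MG. In microglia *Sag* stood at 18.7, 27.4, 18.02 and 30.4 CPM, which is above MG in both Cell Ranger 8.0.0 libraries and below it in both 9.0.1 libraries. It made up 7 of 10 rod-gene UMIs in the microglia of *mKate2* 1 and 34 of 45 in those of *Yap5SA* 1, where *Gnat1* had no UMI. In MG of these libraries *Sag* made up 186 of 681 and 35 of 107 rod-gene UMIs.

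*Rgs9*, the GTPase-accelerating protein that shuts off transducin, was held by MG at a narrow range of 31.8, 62.1, 29.6 and 57.9 CPM. Its level in microglia was 0, 11.6, 3.18 and 24.7 CPM, and the classes did not overlap. Of all *Rgs9* UMIs in kept cells, MG held 85.8% in *mKate2* 1 and 93.1% in *Yap5SA* 1, against 8.98% in *mKate2* 2 and 7.74% in *Yap5SA* 3, the libraries with many rods. Of the kept UMIs of all genes, MG held 11797144 of 12710226 in *mKate2* 1 and 9564473 of 12872606 in *Yap5SA* 1. In *mKate2* 2 they held 17844875 of 47311712 and in *Yap5SA* 3 7410927 of 14619544. The *Rgs9* share in *mKate2* 1 was thus below the MG share of all UMIs. *Rgs9bp*, the anchor of RGS9, stayed at 0.424, 3.53, 0.105 and 9.04 CPM in MG, and *Grk1*, the receptor kinase, at 1.86, 7.12, 0 and 13.6 CPM.

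*Gucy2f* encodes a retinal membrane guanylate cyclase that restores cGMP after light. It stood at 222 and 389 CPM in the rods of *mKate2* 2 and *Yap5SA* 3 and at 25.0, 17.2, 11.6 and 32.9 CPM in MG, on 295, 307, 111 and 244 UMIs. In microglia it had no UMI in 3 libraries and 14 UMIs in *mKate2* 2 (2.57 CPM), so the classes did not overlap. MG held 96.7% of its UMIs in *mKate2* 1 and 97.4% in *Yap5SA* 1, libraries where MG also held most of the UMIs of all genes. At least 1 *Gucy2f* UMI was counted in 13.5%, 6.04%, 8.60% and 10.6% of MG (median 6204, 2888, 10735 and 2920 UMIs) and in 0%, 1.20%, 0% and 0% of microglia (median 14640, 4012, 13065 and 5353 UMIs). With each cell thinned to 1000 UMIs the shares in MG were 2.14%, 1.20%, 1.75% and 2.39%, and in microglia 0 of 26, 0.547%, 0 of 136 and 0 of 64 cells, which allow up to 11.5%, 2.21% and 4.69% in the 3 libraries at 0. The other cyclase, *Gucy2e*, stood at 0.848, 7.62, 0.523 and 6.75 CPM in MG and did not share this pattern.

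The Ca2+ sensors and structural genes filled out the rod pattern. *Rcvrn*, recoverin, stood at 7.80, 43.4, 0.523 and 52.1 CPM in MG and at 2499 and 3096 CPM in the rods of *mKate2* 2 and *Yap5SA* 3. *Guca1b*, a guanylate cyclase activating protein, stood at 0.932, 7.79, 0.523 and 19.8 CPM in MG. *Pdc*, phosducin, which binds the transducin beta-gamma pair, stood at 14.2, 48.6, 0.627 and 88.8 CPM. Of the disc rim proteins, *Prph2* stood at 3.56, 33.6, 0.523 and 41.3 CPM in MG. Its partner *Rom1* stood at 12.5, 51.3, 12.3 and 71.5 CPM, and did not fall in *Yap5SA* 1 as *Prph2* did. *Slc24a1*, the rod Na+/Ca2+-K+ exchanger, stood at 4.15, 31.1, 3.45 and 84.6 CPM.

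**Figure D1:**
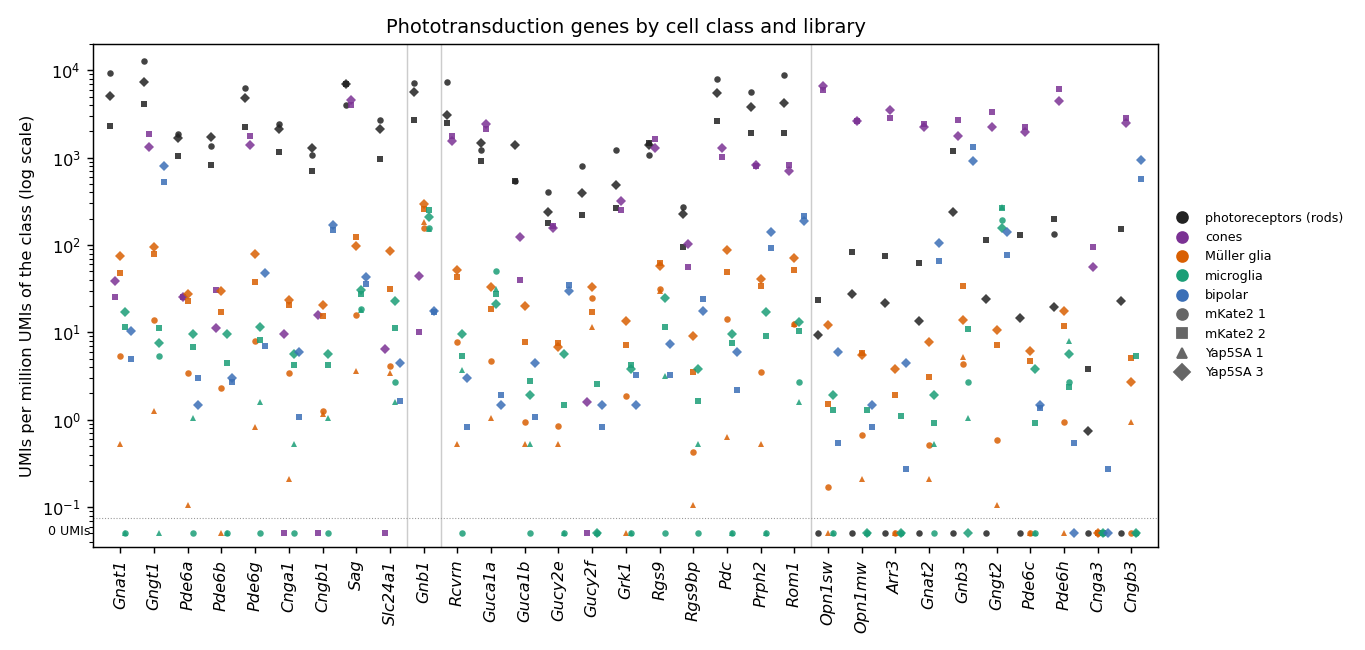
Level of each of the 31 genes (CPM, log axis) in the rod, cone, MG, microglia and bipolar classes, with 1 point per library and genes without UMIs drawn in a band at the bottom. The rod genes sit at 696 CPM or more in the rods of *mKate2* 2 and *Yap5SA* 3 and at 123 CPM or less in MG, while *Gngt2* stands between 156 and 273 CPM in microglia.

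Cones and rods were compared to ask which members separate the photoreceptor types found among the sorted cells. How these cells came to be in the libraries was not tested. With the 3 genes that chose the cones left out, 20 of 28 genes passed in edgeR's quasi-likelihood test (p-values adjusted by Benjamini-Hochberg over all 10198 genes). Of these 7 were higher in cones and 13 lower, against 8.74% of all genes (4.76% higher and 3.98% lower). The comparison paired the classes within *mKate2* 2 and *Yap5SA* 3 and had 1 residual degree of freedom before the spread was pooled over genes. All 7 cone counterparts tested were higher in cones, with log2 fold changes from 1.97 to 6.30, and 7 of the 9 rod genes were lower, with a median of −6.27 against −0.04 over all genes.

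The cone counterparts are described by role. *Gnat2*, the cone transducin alpha subunit, stood at 2415 and 2241 CPM in the cones of *mKate2* 2 and *Yap5SA* 3 and at 62.8 and 13.4 CPM in rods (log2 fold change 6.21 ± 0.56 SE, adjusted p = 3.94e-06). *Gngt2*, the cone gamma subunit, stood at 3306 and 2260 CPM in cones and at 115 and 23.8 CPM in rods (log2 fold change 5.63 ± 0.52 SE, adjusted p = 4.81e-06). *Pde6c* and *Pde6h*, the cone PDE6 catalytic and inhibitory subunits, and *Cnga3* and *Cngb3*, the cone channel subunits, rose by 5.06 to 6.30 on the log2 scale. *Gnb3* separated the classes least, at 2702 and 1768 CPM in cones and 1208 and 242 CPM in rods (log2 fold change 1.97 ± 0.45 SE, adjusted p = 0.0101).

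Among the genes that were lower in cones, *Slc24a1* changed most. It stood at 976 and 2123 CPM in rods, and in cones had no UMI in *mKate2* 2 and 6.38 CPM in *Yap5SA* 3 (log2 fold change −8.68 ± 0.62 SE, adjusted p = 1.19e-06). The log2 fold change was −8.19 for *Cnga1*, −8.18 for *Gucy2f*, −7.28 for *Gnb1*, −6.93 for *Gnat1*, −6.77 for *Cngb1*, −6.27 for *Pde6b* and −5.85 for *Pde6a*. *Guca1b* stood at 40.3 and 123 CPM in cones against 544 and 1388 CPM in rods (log2 fold change −3.64 ± 0.39 SE). *Gngt1*, *Pdc*, *Prph2* and *Rom1* were lower by less (log2 fold changes −1.94 to −1.78) and were still counted at 712 to 1842 CPM in cones. *Pdc* and *Gngt1* no longer passed when the marker threshold was raised to 1% (adjusted p = 0.156 and 0.135).

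The 8 genes that did not pass included 2 from the rod list. *Sag* stood at 3960 and 4630 CPM in cones and 7012 and 6877 CPM in rods (log2 fold change −0.74 ± 0.46 SE, adjusted p = 0.458). *Pde6g*, the rod PDE6 inhibitory subunit, stood at 1791 and 1408 CPM in cones (log2 fold change −1.10 ± 0.46 SE, adjusted p = 0.194), above its level in the MG, microglia and bipolar classes. The others were *Rcvrn*, *Guca1a*, *Gucy2e*, *Grk1*, *Rgs9* and *Rgs9bp*, which serve both photoreceptor types, with log2 fold changes from −1.06 to 0.93. *Rgs9* had the smallest difference, at 1615 and 1293 CPM in cones and 1458 and 1410 CPM in rods (log2 fold change −0.03 ± 0.37 SE). Of the guanylate cyclases, *Gucy2e* was held by both types (166 and 158 CPM in cones, 178 and 240 CPM in rods), whereas *Gucy2f* had no UMI in the cones of *mKate2* 2 and 1.596 CPM in those of *Yap5SA* 3.

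**Figure D2:**
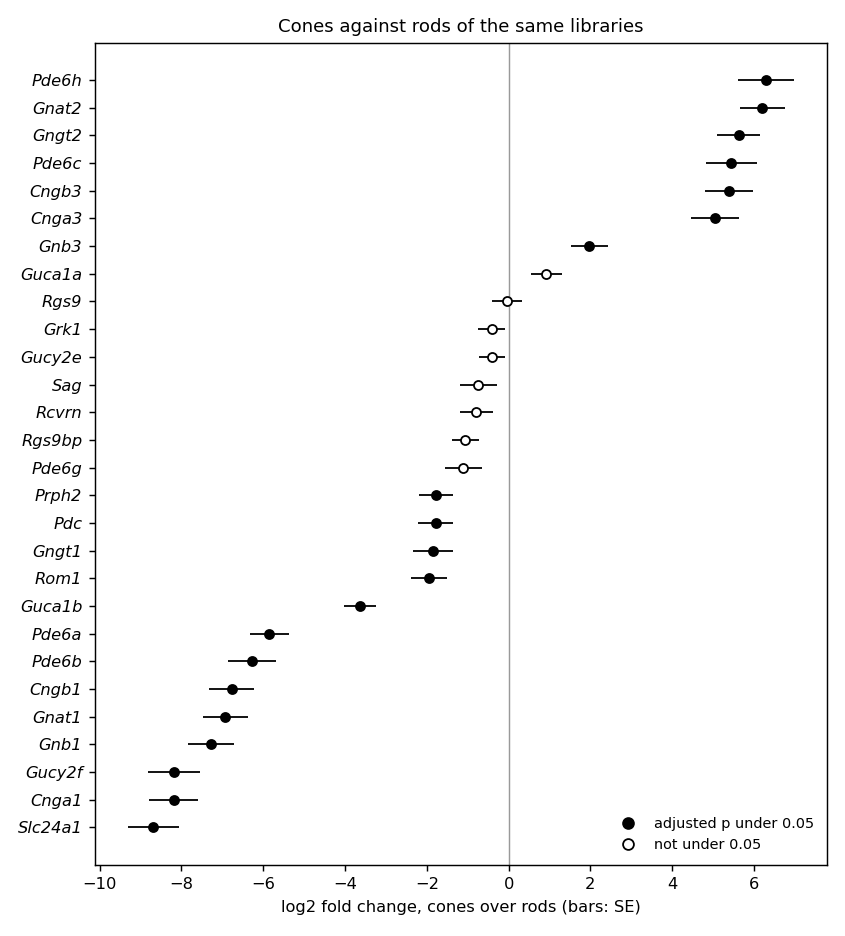
Log2 fold change of cones over rods (x axis) with its SE for 28 genes, fitted within *mKate2* 2 and *Yap5SA* 3. The 7 cone counterparts lie between 1.97 and 6.30, and the rod genes run from −8.68 for *Slc24a1* to −0.74 for *Sag*.

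The rods of the AAV groups could be compared over only 3 libraries. The *Yap5SA* AAV arm was a single library, *Yap5SA* 3, which was assumed to vary like the controls, and *mKate2* 1 had 5 rods. The 3 cone marker genes were left out, since they set which cells were kept as rods. In edgeR's quasi-likelihood test 1 of the other 28 genes passed, lower with *Yap5SA* AAV, against 8.81% of all 11439 genes (2.84% higher and 5.97% lower), and DESeq2 called 0 genes of the whole table. The gene was *Gnat2*, at 0 and 62.8 CPM in the rods of *mKate2* 1 and *mKate2* 2 and at 13.4 CPM in *Yap5SA* 3, a value between those of the controls. No difference between AAVs is read from it. The cone counterparts stood between 3.84 and 1208 CPM in the rods of *mKate2* 2 and between 0.745 and 242 CPM in those of *Yap5SA* 3. After thinning to 1000 UMIs, *Gnb3* was counted in 58.6% of the rods of *mKate2* 2 and in 12.5% of those of *Yap5SA* 3, against 1.20% and 0 of 64 of their microglia. The summed level of the 11 bipolar markers in rods was 108 CPM in *mKate2* 2 and 16.4 CPM in *Yap5SA* 3, and its part in this difference was not tested. *Pde6c* was counted in 5.38% and 1.52% of the cells of these rod classes. The part of cones under the cone threshold was not tested either.

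MG of the AAV groups were compared to ask whether cells of the MG lineage carried RNA of the cascade after *Yap5SA* AAV. The 9 rod genes together took 0.00577%, 0.0395%, 0.00112% and 0.0531% of MG UMIs in *mKate2* 1, *mKate2* 2, *Yap5SA* 1 and *Yap5SA* 3, on 681, 7054, 107 and 3938 UMIs. With cells that also passed another threshold kept among the MG, the shares were 0.00812%, 0.0708%, 0.00112% and 0.123%, and with the marker threshold at 0.25% the share in *mKate2* 2 was 0.0194%. The share with *mKate2* AAV was 0.0227% ± 0.0239 (SD, n = 2) and with *Yap5SA* AAV 0.0271% ± 0.0368 (SD, n = 2). The difference of 0.00448 percentage points was smaller than the spread within either AAV (exact permutation test, two-sided, p = 1, smallest p possible 0.33). Within Cell Ranger 8.0.0 it was −0.00465 and within 9.0.1 0.0136 percentage points. Without *mKate2* 1 it was −0.0124 and without *Yap5SA* 3 −0.0215. The summed level of the 12 photoreceptor markers in MG moved in the same order of Cell Ranger versions, at 91.6, 347, 61.8 and 357 CPM, and its part in the rod-gene share was not tested.

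Gene by gene, edgeR's quasi-likelihood test called 0 of 30 members between AAVs in MG, against 0% of all 15245 genes (35 genes had an unadjusted p under 0.05, none of them a member, and DESeq2 called 0). The median log2 fold change of the members, *Yap5SA* AAV over *mKate2* AAV, was 0.23 against −0.03 over all genes, and 20 of 30 were above 0. With the Cell Ranger version as a term in the fit, edgeR's quasi-likelihood test again called 0 of 30 members and 0 of all genes (168 genes and 1 member, *Sag*, had an unadjusted p under 0.05), and the median turned to −0.53, with 11 of 30 above 0, against −0.01 over all genes. *Gnat1* had a log2 fold change of 0.33 ± 1.90 SE without the term and −0.90 ± 0.92 SE with it, and *Sag* had −0.62 ± 1.59 SE and −1.24 ± 0.44 SE. The genes with a steady level in MG moved less. *Gucy2f* had 0.00 ± 0.56 SE without the term and −0.18 ± 0.53 SE with it, *Rgs9* −0.23 ± 0.54 SE and −0.20 ± 0.21 SE, and *Gnb1* 0.08 ± 0.44 SE and 0.10 ± 0.24 SE. *Cnga3*, the cone channel subunit, had no UMI in the MG of any library and was not tested.

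The Cell Ranger version, fitted beside AAV, went with a far larger difference. The median log2 fold change of the 30 members tested, 9.0.1 over 8.0.0 libraries, was 4.11 against 0.01 over all genes, and all 30 were above 0. With 1 residual degree of freedom edgeR's quasi-likelihood test called 0 members, against 0% of all genes, although 28 of 30 members and 1837 of all 15245 genes had an unadjusted p under 0.05. DESeq2 called 20 members, among 410 genes. Without a filter on low counts edgeR called 9 members, and its count over all genes is not given here. The 9 rod genes had log2 fold changes from 3.88 to 4.84. The smallest differences among all members were those of *Gucy2f* (0.61 ± 0.53 SE), *Gnb1* (0.83 ± 0.24 SE) and *Rgs9* (1.11 ± 0.21 SE). Version and every other property of these library pairs, such as the number of rods captured, cannot be told apart.

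How the rod genes were spread over MG also differed between libraries. With each cell thinned to 1000 UMIs, at least 1 rod-gene UMI was counted in 6.17%, 13.8%, 1.62% and 38.6% of MG, against 0 of 26 (up to 11.5%), 11.7%, 2.21% and 14.1% of microglia, where the genes are not known to be used. The matching shares were 99.6% and 99.8% of the rods, 93.8% and 97.9% of the cones, and 37.8% and 61.8% of the bipolar cells of *mKate2* 2 and *Yap5SA* 3. Of the rod genes, *Gngt1* (530 and 808 CPM) and *Cngb1* (148 and 171 CPM) were the highest in these bipolar cells. In the cones *Sag*, *Gngt1* and *Pde6g* were the highest. The shares of cones and bipolar cells are therefore not read as stray RNA. Unthinned, the MG shares were 17.9%, 29.7%, 8.60% and 61.7%. For a single rate in all cells the variance of the thinned counts would be close to their mean. The ratio of variance to mean in MG was 2.49, 3.32, 0.985 and 3.34, and in the microglia of *mKate2* 2, *Yap5SA* 1 and *Yap5SA* 3 it was 1.24, 0.985 and 1.21. In *mKate2* 2 the top 5% of MG held 64.9% of the thinned rod-gene UMIs, and in *Yap5SA* 3 they held 36.8%.

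The part of the rod-gene UMIs that lay in MG close to the photoreceptor threshold differed between libraries, and was largest in *mKate2* 2. In *mKate2* 2, 41 of 2832 MG had photoreceptor markers at 0.25% to 0.5% of their UMIs, and these held 3852 of the 7054 rod-gene UMIs. In *Yap5SA* 3, 68 of 1299 MG in that range held 971 of 3938. In *mKate2* 1, 7 of 1492 MG held 111 of 681, and *Yap5SA* 1 had no MG in that range. MG with photoreceptor markers under 0.1% held 435, 1862, 98 and 1902 rod-gene UMIs in the 4 libraries. Among MG with photoreceptor markers under 0.1% (1460, 2703, 797 and 1047 cells) the rod-gene share was 0.00372%, 0.0115%, 0.00103% and 0.0285%. In those cells *Gucy2f* stood at 24.7, 14.2, 11.6 and 33.4 CPM and *Rgs9* at 29.9, 35.3, 29.6 and 46.4 CPM, whereas *Gnat1* stood at 4.70, 13.9, 0.523 and 35.1 CPM. The levels of *Gucy2f* and *Rgs9* varied less between libraries than that of *Gnat1*, and in *Yap5SA* 1 they did not drop to near 0 as it did.

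In MG of *Yap5SA* 3 and *mKate2* 1 the number of rod-gene UMIs per cell rose less than the depth of the cell. In MG of *Yap5SA* 3 the mean was 1.62, 3.46, 3.70 and 4.03 rod-gene UMIs per cell at depths of 1000 to 2000, 2000 to 4000, 4000 to 8000 and at least 8000 UMIs, and the share of UMIs was 0.110%, 0.121%, 0.0693% and 0.0186%. In *mKate2* 1 the means were 0.272, 0.444, 0.505 and 0.530. In *Yap5SA* 1 they were 0.0106, 0.0988, 0.154 and 0.157, on 1, 8, 22 and 76 UMIs, and the share in the deepest bin (0.000909%) was not below that in the shallowest (0.000756%). *mKate2* 2 departed at the deepest bin, with 0.478, 0.713, 0.954 and then 13.0 rod-gene UMIs per cell. The microglia of *mKate2* 2 went from 0.311 to 0.952 over the same bins. The barcodes under 1000 UMIs (down to 500), outside every class, had rod-gene shares of 0.112%, 0.173%, 0.0521% and 0.421%, above the MG share of their library in all 4. What part RNA from broken rods, rods captured with an MG, or rods under 1000 UMIs had in these values was not tested.

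**Figure D3:**
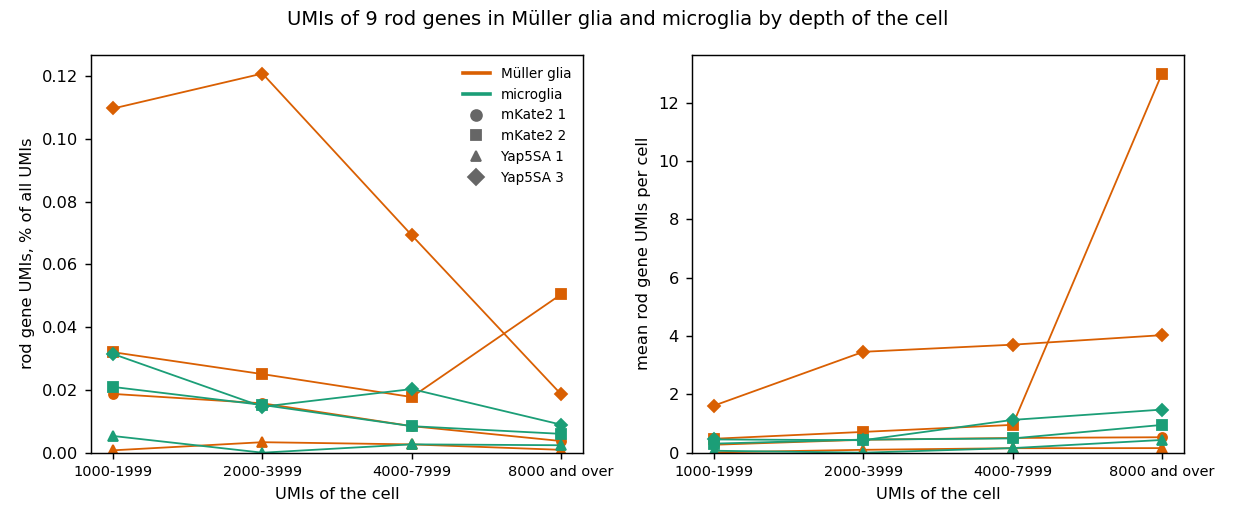
Share of UMIs from the 9 rod genes (%) and mean rod-gene UMIs per cell (y axes) against the depth of the cell (x axis, 4 bins) in MG and microglia, with 1 line per library and the 26 microglia of *mKate2* 1 not drawn. The deepest MG of *mKate2* 2 stand apart at 13.0 rod-gene UMIs per cell.

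Levels in MG were also set against rods of the same library. *Gnb1* and most of the members that serve both photoreceptor types stood above the median of the rod genes. In *mKate2* 2 the level of the 9 rod genes in MG was 2.05% (median; 1.70% to 3.19%) of that in rods, and in *Yap5SA* 3 it was 1.61% (1.10% to 3.98%). *Slc24a1* was the highest of the 9 in both. In microglia the median was 0.493% (0.274% to 1.15%) and 0.442% (0.104% to 1.07%). *Gucy2f* in MG stood at 7.74% (95% counting interval 6.82 to 8.76) and 8.46% (7.33 to 9.73) of its rod level, *Rgs9* at 4.26% (3.998 to 4.53) and 4.10% (3.71 to 4.54), and *Gnb1* at 9.59% (9.28 to 9.91) and 5.26% (5.02 to 5.50). *Gucy2e* stood at 4.28% (3.56 to 5.12) and 2.81% (2.07 to 3.76). *Rgs9bp*, *Grk1*, *Rom1* and *Guca1a* in MG were also above the median in both libraries. *Rgs9bp* was close to *Rgs9*, at 3.53 CPM in MG against 94.8 CPM in rods of *mKate2* 2 and 9.04 against 227 CPM in *Yap5SA* 3. In *Yap5SA* 3 the value of *Gucy2e* lay within the range of the 9 rod genes, and the interval of *Rgs9* held the value of *Slc24a1* (3.98%). In microglia *Gnb1* stood at 9.42% and 3.79% of its rod level, and *Guca1a* at 3.00% (2.53 to 3.53) and 1.42% (0.710 to 2.55). All of these intervals cover counting error only.

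**Figure D4:**
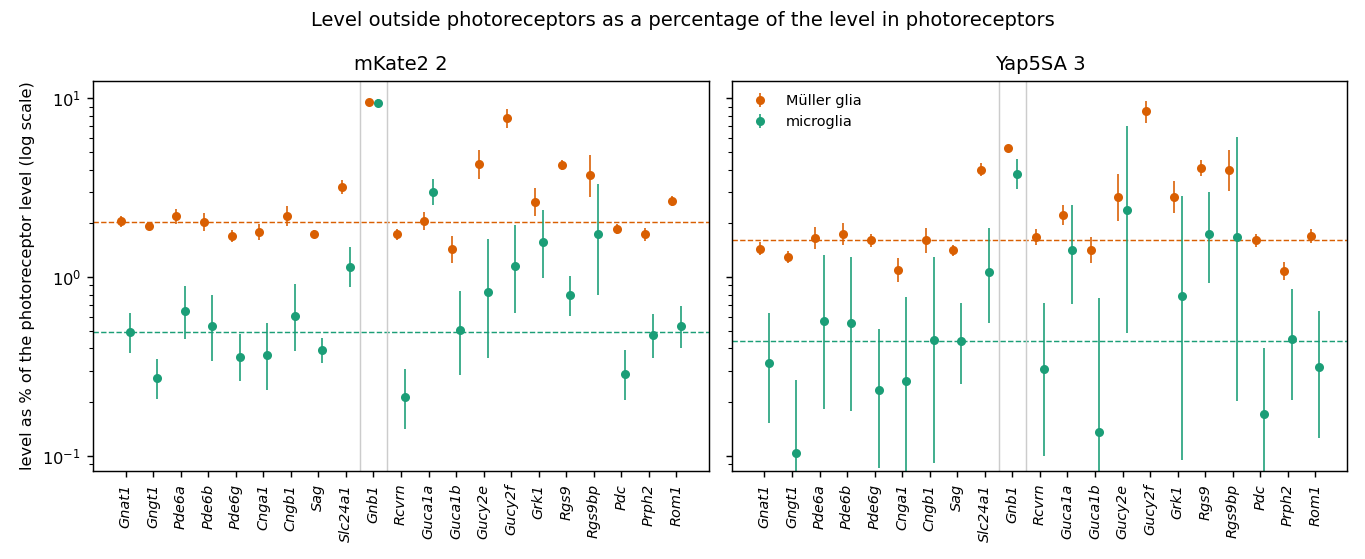
Level of members in MG and microglia as a percentage of their level in rods of the same library (log axis), for *mKate2* 2 and *Yap5SA* 3, with 95% counting intervals and dashed lines at the median of the 9 rod genes. *Gucy2f*, *Rgs9* and *Gnb1* are among the members above the dashed line at 2.05% and 1.61% in MG.

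Microglia and MG were compared within all 4 libraries to ask which members one class held beyond the other. Of 23 members tested, 11 passed in edgeR's quasi-likelihood test after adjustment by Benjamini-Hochberg, 2 higher and 9 lower in microglia, against 49.3% of all 14301 genes (20.8% higher and 28.5% lower). The median log2 fold change was −1.30 over the members and −0.26 over all genes. The share of members called was close to that of all genes. Of the 9 rod genes 4 were lower (*Gnat1*, *Gngt1*, *Pde6g* and *Slc24a1*) and 5 did not pass, with *Sag* at −0.11.

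*Gngt2* was higher in microglia, at 195, 263, 273 and 156 CPM against 0.593, 7.23, 0.105 and 10.7 CPM in MG (log2 fold change 6.77 ± 0.82 SE, adjusted p = 1.40e-05). The classes did not overlap, and the call held in all 15 alternatives. After thinning to 1000 UMIs it was counted in 23.1%, 24.5%, 23.5% and 14.1% of microglia and in 0.0670%, 0.424%, 0 of 802 (up to 0.374%) and 1.15% of MG. In GRCm39 *Gngt2* lies at chr11:95725953-95736565 (+) and overlaps *Abi3*, a microglial gene on the opposite strand at chr11:95720900-95733302. *Abi3* stood at 96.2, 116, 73.1 and 85.6 CPM in microglia and 0 to 0.280 CPM in MG. The use of strand in counting is not given in the sources used here, so the reads of this pair cannot be told apart. *Pde6h* lies across *Arhgdib* in the same way, where *Arhgdib* stood at 330 to 532 CPM in microglia and *Pde6h* at 2.67, 2.39, 7.95 and 5.70 CPM.

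*Guca1a*, which encodes guanylate cyclase activating protein GCAP1, was also higher in microglia, at 50.8, 27.2, 31.8 and 20.9 CPM against 4.75, 18.8, 1.05 and 32.9 CPM in MG (log2 fold change 2.32 ± 0.72 SE, adjusted p = 0.0160). The classes overlapped, since microglia were higher in 3 of 4 libraries and lower in *Yap5SA* 3, and without *mKate2* 1 the call was lost (log2 fold change 1.77, adjusted p = 0.127). After thinning, the shares of microglia with a *Guca1a* UMI were 3.85%, 2.74%, 3.68% and 1.56%, each from 25 cells or fewer. It overlaps a predicted gene on the same strand that was not among the counted genes.

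The lower members were led by *Gucy2f*, whose levels stand above (log2 fold change −3.50 ± 0.69 SE, adjusted p = 0.000908). *Pdc* followed (−2.54 ± 0.48 SE, adjusted p = 0.000647), then *Gngt1* (−2.43 ± 0.45 SE, adjusted p = 0.000597), *Rgs9* (−2.01 ± 0.46 SE, adjusted p = 0.00257) and *Rom1* (−2.00 ± 0.38 SE, adjusted p = 0.000687). *Gucy2f* and *Rgs9* were the lower members whose classes did not overlap. How many of all genes did not overlap was not counted, so no trait of these members or of *Gngt2* is read from it. *Gucy2f* and *Rgs9* each lost the call of edgeR's quasi-likelihood test with cells of 2000 to 8000 UMIs alone (adjusted p = 0.139 and 0.0829). *Gnat1* had a log2 fold change of −1.70 ± 0.46 SE (adjusted p = 0.00758), which was lost without *Yap5SA* 3 (adjusted p = 0.0558). *Pde6g* (−1.61), *Gnb3* (−1.55) and *Slc24a1* (−1.02) passed with adjusted p of 0.0300, 0.0405 and 0.0463, and each lost its call without *mKate2* 2 and without *Yap5SA* 3. *Gnb1* had a log2 fold change of 0.22 and did not pass. The photoreceptor markers were lower in microglia as well, at a sum of 24.1, 93.5, 29.2 and 87.5 CPM, with 3, 12, 6 and 11 of 12 detected, and their part in these differences was not tested.

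**Figure D5:**
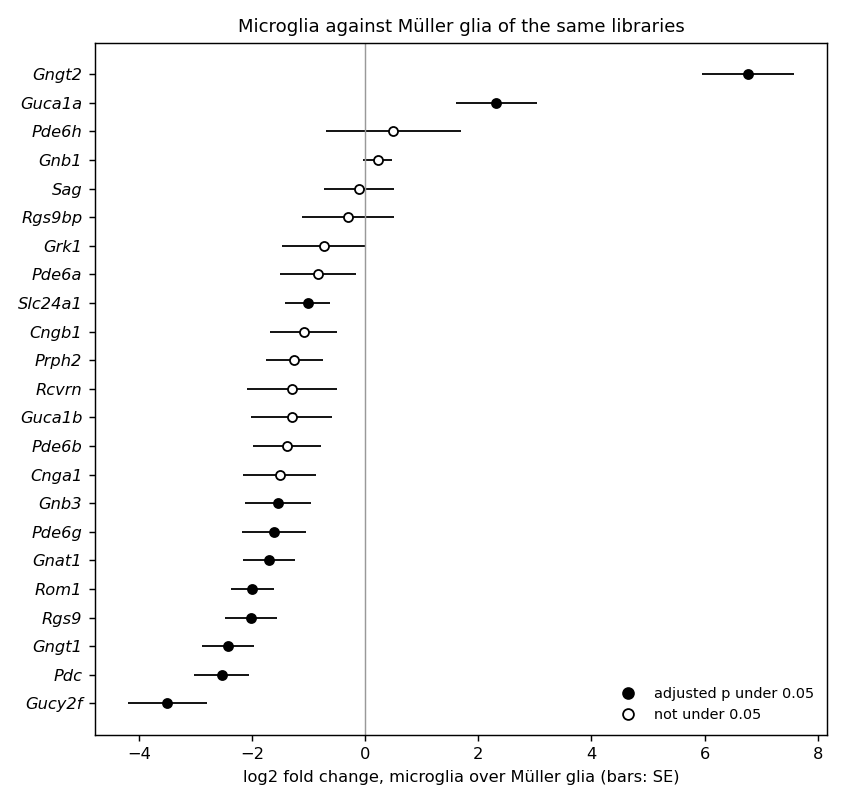
Log2 fold change of microglia over MG (x axis) with its SE for the 23 members tested, fitted within 4 libraries. *Gngt2* stands alone at 6.77, *Guca1a* follows at 2.32, and *Gucy2f* is lowest at −3.50.

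A list of 21 further phototransduction genes was taken through the same comparisons. Between microglia and MG, 13 of them were tested, of which 2 were higher and 6 lower in microglia (49.3% of all genes called, 20.8% higher and 28.5% lower), with a median of −1.30 against −0.26 over all genes. Those with the largest changes were *Gnat3*, *Prcd*, *Rdh12*, *Aipl1* and *Gnb5*. *Gnb5*, the beta subunit that stabilises RGS9, stood at 27.0, 51.1, 26.5 and 53.0 CPM in MG and at 0, 12.7, 3.71 and 3.80 CPM in microglia (log2 fold change −2.34 ± 0.47 SE, adjusted p = 0.000955). Its level in MG, like that of *Rgs9*, did not fall in *Yap5SA* 1. *Prcd*, a disc protein, *Rdh12*, a retinol dehydrogenase, and *Aipl1*, a chaperone of PDE6, fell by 3.29, 2.35 and 2.35 on the log2 scale. Between AAVs in MG 0 of 18 of these genes passed edgeR's quasi-likelihood test, none had an unadjusted p under 0.05, and DESeq2 called 0 of all genes. Between cones and rods 2 of 19 were higher in cones and 5 lower, against 4.76% and 3.98% of all genes. *Slc24a2*, the cone exchanger, stood at 835 and 788 CPM in cones and 148 and 14.5 CPM in rods (log2 fold change 3.99 ± 0.61 SE), the opposite direction to *Slc24a1*. *Fscn2*, an actin-bundling protein of the outer segment, was lower in cones (−3.66 ± 0.48 SE), as were *Nxnl2* (−1.70) and *Prom1* (−1.63). *Rgs7* was higher (3.50 ± 0.48 SE).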

How the data were processed

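The authors deposited UMI counts per gene and cell barcode, made with Cell Ranger on GRCm39 per the labels (8.0.0 in the submitters' processing notes, 8.0.0 or 9.0.1 in the file headers). The annotation and the use of strand are not given in the sources used here. Libraries held 13134827 to 50938304 UMIs. Cells were classed by summed marker shares without clustering. No doublet caller was run, and cells over several thresholds were set apart. UMI counts were summed per library and class and tested with edgeR 4.0.16 (R 4.3.3, filterByExpr, TMM, glmQLFTest, Benjamini-Hochberg adjustment over all genes, threshold 0.05), with library as a term between classes and AAV as a term between Cell Ranger versions. DESeq2 1.42.0 was an alternative. The code was tested on simulated data. Poisson and Clopper-Pearson intervals (95%) cover counting error only, and a count of 0 was given an upper limit of 3 counts. The 31 genes, the marker lists and the list of further genes were chosen with earlier results of these data known. Genes named are all 31 and, of the further list, the 5 highest in rods and up to 5 called genes per comparison. Of these, 2 genes are not reported here.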

Additional observations from a re-analysis of the deposited data

Results flagged for a closer look

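The rod-gene share of MG UMIs was lower with *Yap5SA* AAV than with *mKate2* AAV within the Cell Ranger 8.0.0 libraries (by −0.00465 percentage points) and higher within the 9.0.1 libraries (by 0.0136 percentage points). It stood out because the AAV difference had opposite signs in the 2 versions, with 1 library of each AAV in each. The difference between versions was not tested.

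The barcodes under 1000 UMIs (down to 500), which entered no comparison, had a rod-gene share of 0.421% in *Yap5SA* 3. This stood out as a signal in unused data above the level of both control libraries (0.112% and 0.173%). *Yap5SA* 1, the other library of this AAV, was at 0.0521%. These barcodes were not classed, and the part of rods among them was not tested.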

How the results depend on the processing

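Called members kept direction and side of the threshold in 274 refits and lost the call in 32, and none changed sign. The difference between AAVs in the rod-gene share of MG ranged from −0.0215 to 0.0305 percentage points with 1 library left out, with negative values without *mKate2* replicate 1 (−0.0124) and without *Yap5SA* replicate 3 (−0.0215). It was 0.0225 with cells over several thresholds kept, 0.0300 as a mean over cells and, chosen after seeing the data, 0.0327 in cells of 2000 to 8000 UMIs, against 0.00448 (exact permutation p = 1 in each). In microglia it was 0.00140 (p = 1, exact permutation test) and ranged from −0.00340 to 0.00620, with −0.00171 and −0.00340 without those libraries, and −0.00155 at a marker threshold of 1%. Between AAVs in rods DESeq2 called 0 members, against 1. With the Cell Ranger version as a term the median of the members between AAVs in MG turned from 0.23 to −0.53, with 0 calls in both fits. Between microglia and MG the 11 calls became 7 at a threshold of 0.25%, and 7 to 11 with 1 library left out (7 without *Yap5SA* replicate 3). Also chosen then, cells of 2000 to 8000 UMIs gave 5 calls and the Cell Ranger 8.0.0 libraries alone gave 7 (4 higher, 3 lower). Between versions DESeq2 called 20 members and edgeR without a filter 9, against 0. The counts between microglia and MG, and without a filter between versions, are given without the share of all genes called in the same refit. Nothing particular to the members is read from them. The cause of these changes was not tested. *Gngt2* and *Rom1* kept their calls in all 15 alternatives between microglia and MG. Leaving out a library gave no value between AAVs in rods, between versions or between cones and rods, since no residual degrees of freedom remained. Other settings between AAVs in rods left too few rods in *mKate2* 1. No paired analysis was possible because, without *Yap5SA* replicate 2, the AAVs share only replicate number 1, so that a block on that number could not be fitted beside AAV. Depth limited the microglia of *mKate2* 1 (26 cells) and the rods of *mKate2* 1 (5 cells).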

Other observations

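Bipolar cells, which receive the photoreceptors' signal, held a few of the 31 genes well above the rest. In the bipolar class of *mKate2* 2 (164 cells) and *Yap5SA* 3 (34 cells) *Gnb3*, the beta subunit that ON bipolar cells also use, stood at 1319 and 906 CPM. *Cngb3* stood at 576 and 932 CPM and *Gngt1* at 530 and 808 CPM. *Rom1* (217 and 190 CPM), *Cngb1* (148 and 171 CPM), *Prph2* (92.0 and 140 CPM), *Gngt2* (77.3 and 143 CPM) and *Gnat2* (65.1 and 105 CPM) followed. *Gnat1* stood at 4.90 and 10.4 CPM and *Gnb1* at 17.2 and 17.8 CPM, the latter below its level in MG of both libraries. The 12 photoreceptor markers summed to 686 and 858 CPM in these cells, and their part in these levels was not tested.

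*Gnat3*, the transducin alpha subunit of taste cells, had no UMI in rods or cones. In the bipolar class it stood at 2.99 CPM in *mKate2* 2 (11 UMIs, in 1.22% of cells) and had no UMI in *Yap5SA* 3. It stood at 72.2, 2.94, 11.7 and 5.70 CPM in microglia of *mKate2* 1, *mKate2* 2, *Yap5SA* 1 and *Yap5SA* 3 and had 1 UMI in all MG, in *Yap5SA* 3 (edgeR's quasi-likelihood test, adjusted p = 4.43e-06, higher in microglia in 4 of 4 libraries).

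Of the 21 further phototransduction genes, *Prom1* and *Aipl1* were among those with the highest level in rods. *Prom1*, a disc protein, stood at 916 and 808 CPM in the rods of *mKate2* 2 and *Yap5SA* 3 and at 5.17 and 4.45 CPM in bipolar cells. *Aipl1* stood at 895 and 877 CPM in rods and *Cdhr1*, a photoreceptor cadherin, at 341 and 406 CPM, with 1349 CPM in the 5 rods of *mKate2* 1.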
